A study of Mus musculus with 10 samples.

Results

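The RNAs described here are those of the mouse mitochondrial genome, taken as every gene whose symbol begins with mt-. There were 37 such genes among the 55573 genes counted: 13 mRNAs, 2 rRNAs and 22 tRNAs. The RNA was sequenced in bulk and came from HSPCs (hematopoietic stem and progenitor cells), which renew the blood, of the bone marrow of C57BL/6 mice 16 weeks of age. All mice, controls included, had received 500 cGy of total body irradiation, and the cells were taken 6 weeks after it. The 2 groups differed in what was injected under the skin: 5 libraries came from mice given saline, and 5 from mice given EGF (epidermal growth factor, the ligand of the receptor EGFR). The question was what EGF treatment after radiation injury does to the RNA of these cells. The sort gate that defined the HSPCs is not given in the sources used here. Whether the libraries of a group come from different mice is not labelled, so p-values here rest on the spread from library to library, part of which can be technical.

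The mitochondrial genome is a small circle of DNA that is kept in many copies per cell and transcribed from both strands into long precursors. The precursors are cut at the tRNAs that lie between the other genes, which frees the rRNAs and mRNAs. The mRNAs encode core subunits of complexes I, III, IV and V of the respiratory chain, the rRNAs build the mitochondrial ribosome, and every other subunit comes from the nucleus. On the annotated plus strand of chromosome M (GENCODE release M21, build GRCm38) lie 12 of the mRNAs, both rRNAs and 14 tRNAs. On the minus strand lie mt-Nd6, the only mRNA there, and 8 tRNAs.

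Nuclear chromosomes hold insertions of mitochondrial DNA, and reads from a mitochondrial gene with an identical insertion cannot be placed by their sequence. A stretch on chromosome 1 (chr1:24611535-24616197, minus strand, GRCm38), annotated as 7 unprocessed pseudogenes, follows chrM:6390-11042 gene by gene, with a shift of at most 1 base. Inside the mitochondrial stretch lie 6 whole mRNA genes (mt-Co2, mt-Atp8, mt-Atp6, mt-Co3, mt-Nd3 and mt-Nd4l), 5 tRNA genes, the end of mt-Co1 and the start of mt-Nd4. The sequences below, read from the GENCODE transcripts, are shown because the 5 mRNAs with almost no counts all lie in this stretch. The first 80 bases of mt-Co2 (chrM:7013-7092, plus strand) and of the pseudogene Gm28661 (chr1:24615486-24615565, minus strand) are identical.
mt-Co2: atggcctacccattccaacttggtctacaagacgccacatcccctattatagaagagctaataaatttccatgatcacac
Gm28661: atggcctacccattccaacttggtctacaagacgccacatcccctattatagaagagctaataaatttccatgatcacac
The first 43 bases of mt-Nd3 (chrM:9459-9501, plus strand) and of Gm28438 (chr1:24613077-24613119, minus strand) differ by T3C, counted from 1 at the gene's first base and capitalised. This was the only substitution between them over 345 aligned bases.
mt-Nd3: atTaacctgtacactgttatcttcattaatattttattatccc
Gm28438: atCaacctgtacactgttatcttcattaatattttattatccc
In mt-Nd4 the match to the pseudogene Gm28439 ends at base 876, and in mt-Co1 the match to Gm29216 begins at base 1063. The capitals mark the bases outside the chromosome 1 match in 80 bases of each gene (chrM:11003-11082 for mt-Nd4 and chrM:6350-6429 for mt-Co1, both on the plus strand). Within its match, mt-Co1 differs from Gm29216 by A1066T.
mt-Nd4: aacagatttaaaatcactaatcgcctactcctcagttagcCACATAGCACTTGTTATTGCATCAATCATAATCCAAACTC
mt-Co1: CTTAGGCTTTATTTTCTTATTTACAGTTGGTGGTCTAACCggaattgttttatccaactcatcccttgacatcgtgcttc

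The mRNAs inside the copied stretch had almost no counts, although they share precursors with genes that had far more. mt-Co2 and mt-Co3, subunits of complex IV, had at most 4 and 1 counts in any library, and mt-Atp8 and mt-Atp6, subunits of complex V, had at most 1 and 4. mt-Nd4l, a subunit of complex I, had 0 counts in all 10 libraries, where a count of 0 allows up to 3 counts, or 0.358 to 0.441 CPM (counts scaled to a library total of 1000000). mt-Nd3, also of complex I, was the exception in this stretch, with 49 to 99 counts in 9 libraries and 1 in EGF replicate 5. The 5 tRNAs inside the stretch (mt-Ts1, mt-Td, mt-Tk, mt-Tg and mt-Tr) had 2 counts in total over all libraries. The 7 pseudogenes on chromosome 1 had few counts as well, together 6 to 24 in a library.

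The share of a gene that could be told from its copies was measured by cutting it into every window of 50 bases and searching each in all other GENCODE transcripts. No window of mt-Co2 lacked an exact copy, and 0.136% did for mt-Co3, 0.475% for mt-Atp6, 1.21% for mt-Nd4l and 2.01% for mt-Nd3. The windows of mt-Nd3 that lacked a copy numbered 6 of 299. Of mt-Nd4 37.8% of windows lacked a copy, of mt-Co1 48.9%, of mt-Nd2 91.8% and of mt-Nd5 92.4%, and 1517 of the 1533 windows of mt-Rnr2 did. For mt-Nd1, mt-Nd6, mt-Cytb, mt-Rnr1 and mt-Atp8 it was 100%. mt-Atp8 stands apart from this order: it had at most 1 count, and only its last 43 bases match an annotated pseudogene transcript, although all of it lies inside the copied stretch. How reads with more than 1 place were treated in the deposited counts is not given in the sources used here, and the part of these copies in the counts was not tested.

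**Figure D1:**
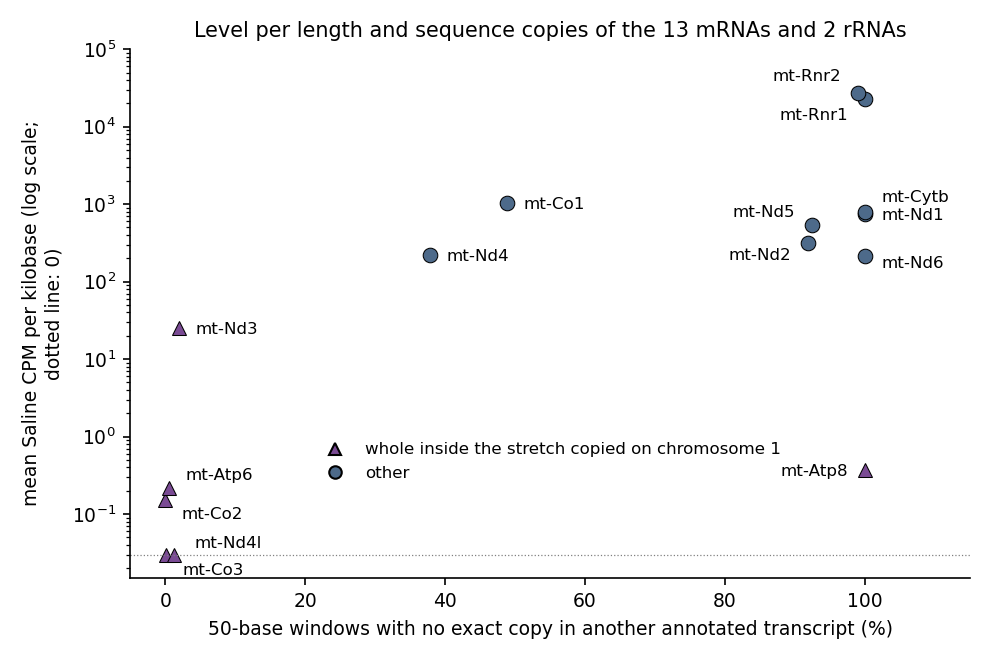
Each point is 1 of the 13 mRNAs or 2 rRNAs: the horizontal axis gives the share of its 50-base windows with no exact copy in another annotated transcript (%), the vertical axis its mean level in the 5 Saline libraries in CPM per kilobase on a log scale, with genes at 0 drawn on the dotted line. Of the genes whole inside the copied stretch (triangles), mt-Nd3 at 25.6 CPM per kilobase is the highest, and every gene not whole inside it lies at 214 or above.

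On the scale of CPM per kilobase of gene, the rRNAs were far above the mRNAs. In the Saline libraries mt-Rnr2, the large-subunit rRNA, had a mean of 26985 CPM per kilobase, and mt-Rnr1, the small-subunit rRNA, had 22522. Among mRNAs the order was mt-Co1 (1040), mt-Cytb (788), mt-Nd1 (747), mt-Nd5 (536), mt-Nd2 (316), mt-Nd4 (223), mt-Nd6 (214) and mt-Nd3 (25.6). Several neighbours in this order are not separated by the spread over the Saline libraries: mt-Cytb ranged from 588 to 907 and mt-Nd1 from 600 to 855, and mt-Nd4 ranged from 172 to 252 and mt-Nd6 from 177 to 255. The lengths include copied bases, so values per kilobase of mt-Co1 and mt-Nd4 rest on an unknown part of each gene. Per kilobase of positions at which a window without a copy begins, mt-Co1 was at 2197 and mt-Nd4 at 613, against 824 for mt-Cytb, and mt-Nd4 then lay above mt-Nd5 (596). On this scale mt-Nd3 was at 1482, above mt-Cytb, but that value rests on only 6 such positions. Its place in the order is therefore not settled.

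Library totals ranged from 6805106 to 8370820 counts. EGF replicate 5 stood apart: 12731 genes had a count in it, against 18734 to 20046 in the other 9, so results are given with and without it. Markers of HSPCs were present: all 12 stem and progenitor genes, Kit among them, had counts in every library. These markers summed to 2653 to 3034 CPM with saline and 2895 to 3396 CPM with EGF. Their presence does not show what part of the RNA came from HSPCs. Markers of other cell types were present in both groups, and no listed marker was at 0 in all libraries. The 10 neutrophil and granule genes summed to 1593 to 5321 CPM with saline and 1714 to 2572 CPM with EGF, and the 8 B and plasma cell genes to 618 to 1392 CPM and 125 to 850 CPM. Libraries were made after depletion of rRNA per the labels' protocols, and whether it targets the mitochondrial rRNAs is not given in the sources used here.

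The mitochondrial rRNAs took a larger share of the counts in every EGF library than in any Saline library. Their summed level in Saline replicates 1 to 5 was 67645, 69069, 67408, 61947 and 54930 CPM. In EGF replicates 1 to 5 it was 79925, 78514, 87021, 92383 and 72599 CPM. The groups did not overlap, the mean was 64200 ± 5849 CPM with saline against 82088 ± 7711 CPM with EGF (SD, n = 5 each), and the ratio of the means was 1.28. The sum is described without a test, since the classes were chosen with earlier results of these data known. The 2 rRNAs together made up 5.49% to 6.91% of all counts with saline and 7.26% to 9.24% with EGF. In bulk RNA such a share cannot tell more RNA per cell from a different mix of cells.

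mt-Rnr1 (chrM:70-1024, plus strand) was the member that separated the groups. Its levels with saline were 22319, 23317, 23332, 20818 and 17758 CPM, and with EGF 27100, 26932, 28216, 31469 and 26900 CPM. The lowest EGF library lay above the highest Saline library. Of the 12874 genes that passed the filter on low counts, 1.24% were higher in all EGF than in all Saline libraries, and mt-Rnr1 was the only one of the 13 mitochondrial genes tested. The log2 fold change was 0.39 (SE 0.13) by edgeR's quasi-likelihood test, with a Benjamini-Hochberg adjusted p of 0.552.

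mt-Rnr2 (chrM:1094-2675, plus strand) gave nearly the same size. Its levels were 45325, 45752, 44075, 41128 and 37173 CPM with saline and 52824, 51582, 58806, 60914 and 45699 CPM with EGF. EGF replicate 5 fell just under Saline replicate 2, and the other 4 EGF libraries lay above all Saline libraries. The log2 fold change was 0.34 (SE 0.14), with an edgeR adjusted p of 0.552. When CPM was scaled by TMM (trimmed mean of M values), the groups did not overlap for mt-Rnr2 either, with 44989 as the highest Saline and 49814 as the lowest EGF value. The share of all genes without overlap on that scale was not computed, so this separation has no background to be read against.

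Neither rRNA passed edgeR, where 0.00777% of the genes tested did, and only some of the other tools called them. DESeq2 called both higher with EGF (adjusted p = 0.0016 each), and 0.28% of all genes tested were called higher by it. DESeq2 gave some of these genes no adjusted p, mt-Nd3 and the 3 tested tRNAs among them. The share is therefore a lower limit for the genes it could call. Limma-voom with sample quality weights, which gives less weight to libraries that stand apart, called mt-Rnr2 (adjusted p = 0.0238) and not mt-Rnr1 (adjusted p = 0.0575), where 0.0621% of all genes were called higher. Without weights, limma-voom called neither rRNA (adjusted p = 0.581 each). None of the tools run called another member. The ratio of the rRNAs to each other did not separate the groups: mt-Rnr2 had 1.89 to 2.09 counts per mt-Rnr1 count with saline and 1.70 to 2.08 with EGF, where EGF replicate 5 had the 1.70.

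**Figure D2:**
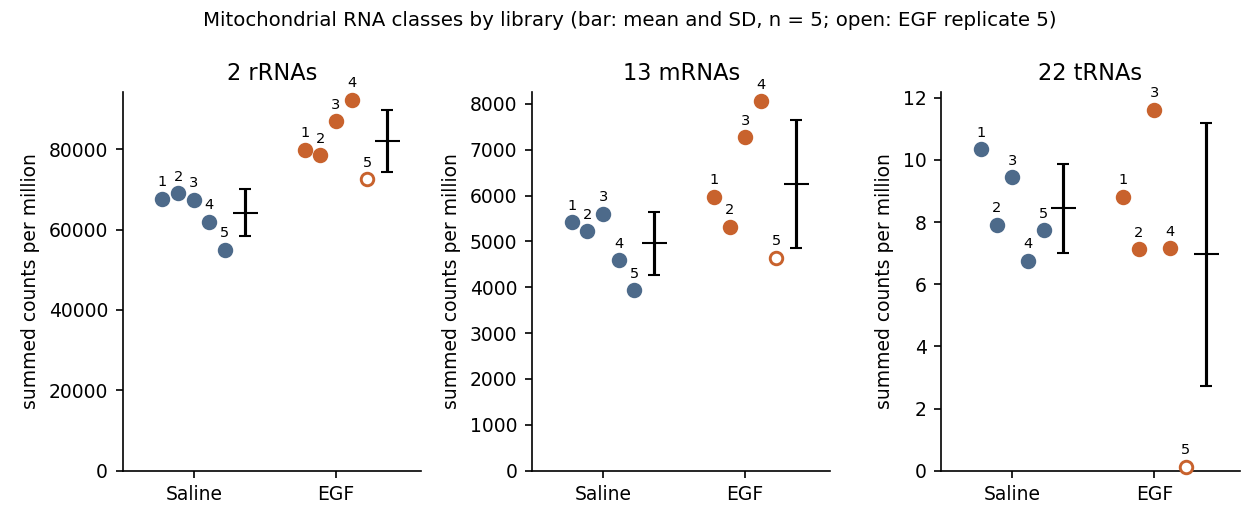
Summed CPM of the 2 rRNAs, 13 mRNAs and 22 tRNAs in each library, Saline in blue and EGF in orange, with the replicate number above each point, EGF replicate 5 drawn open, and the mean and SD (n = 5) beside each group. The EGF libraries, at 72599 to 92383 CPM, all lie above the Saline libraries for the rRNAs, whereas the groups overlap for mRNAs and tRNAs.

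Genes at nuclear ribosomal DNA took a smaller share in 4 of the 5 EGF libraries than in any Saline library. The 4 genes annotated at ribosomal DNA on chromosome 17 (chr17:39843013-39848827), which were picked after their counts were seen, took 7.69% to 9.46% of all counts with saline. With EGF they took 4.98% to 8.92%: EGF replicates 5 (4.98%), 4 (5.49%) and 3 (6.87%) were the lowest, and EGF replicate 2 was the highest. Gm26917 was at 5.53% to 6.65% with saline and 1.85% to 5.71% with EGF, and held most of this share in every library but EGF replicate 5. There Gm42418 held more, at 3.13%. Gm26917 and Gm42418 are annotated as lincRNA (long intergenic noncoding RNA), as is AY036118, which had no counts. CT010467.1, the only gene of the 4 annotated as rRNA, took at most 0.0317% of the counts in any library. Whether the counts of the 4 genes come from RNA of the nuclear ribosomes was not tested. Over the groups Gm42418 was at 2.54% ± 0.410 with saline and 2.46% ± 0.683 with EGF (SD, n = 5 each), a difference smaller than the spread between libraries. With the counts of these genes left out of the library totals, the summed mitochondrial rRNAs still did not overlap. They were at 60671 to 75170 CPM with saline and 76404 to 97749 CPM with EGF. On these totals mt-Rnr2 alone did overlap, with 49793 CPM as the highest Saline and 48094 CPM as the lowest EGF value. With all mitochondrial counts left out of the totals instead, the summed rRNAs were at 58367 to 74613 and 78677 to 102699. There the highest Saline value of mt-Rnr2 was 49424 and the lowest EGF value 49525. The part of the rRNA depletion step in the mitochondrial rRNA levels was not tested.

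The mRNAs summed to 5425, 5224, 5606, 4594 and 3934 CPM with saline and to 5977, 5318, 7275, 8055 and 4649 CPM with EGF. EGF replicates 1, 3 and 4 lay above all Saline libraries, EGF replicate 2 lay among the higher Saline libraries, and EGF replicate 5 among the lower ones. The means were 4957 ± 688 CPM with saline against 6255 ± 1398 CPM with EGF (SD, n = 5 each), a ratio of 1.26. Leaving out EGF replicates 3 and 4, the libraries with the highest sums, lowered the log2 ratio of the means from 0.34 to 0.10. For the rRNAs the same step lowered it from 0.36 to 0.26. Leaving out the highest EGF libraries can only lower the ratio, so the direction of this change carries no information. With EGF replicate 5 left out as well, the ratio was 0.19 for the mRNAs and 0.30 for the rRNAs.

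Among the 13 mRNAs, 8 passed the filter on low counts and 0 passed edgeR's test or DESeq2's, which gave mt-Nd3 no adjusted p. The log2 fold change was above 0 for 7 of the 8 mRNAs and below 0 for mt-Nd3, with a median of 0.29. Over all 12874 genes tested the median was -0.01, and 48.5% were above 0. At an unadjusted p under 0.05 there were 4 members higher with EGF, mt-Rnr1, mt-Rnr2, mt-Co1 and mt-Nd6, of 13 tested, and 6.14% of all genes tested were. Members share precursors, so they do not count as independent genes beside that share. The adjusted p of the 13 members ranged from 0.552 to 0.911.

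Complex I takes electrons from NADH, and its largest mitochondrially encoded subunits are the products of mt-Nd5 and mt-Nd4. mt-Nd5 (chrM:11742-13565, plus strand) was at 1057, 1053, 1101, 894 and 780 CPM with saline and at 1184, 1105, 1483, 1611 and 785 CPM with EGF. The first 4 EGF libraries lay above all Saline libraries, and EGF replicate 5 lay beside the lowest Saline library. The log2 fold change was 0.33 (SE 0.16).

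mt-Nd4 (chrM:10167-11544, plus strand) was at 344, 329, 347, 281 and 238 CPM with saline and at 366, 316, 461, 483 and 112 CPM with EGF. The EGF libraries thus span from below to above all Saline libraries, and the log2 fold change was 0.16 (SE 0.28). mt-Nd1 (chrM:2751-3707, plus strand), the subunit at the quinone-binding end of the complex, was at 813, 706, 818, 664 and 574 CPM with saline and at 848, 852, 1055, 957 and 567 CPM with EGF. As with mt-Nd5, only EGF replicate 5 overlapped the Saline range or fell under it (log2 fold change 0.26, SE 0.14). mt-Nd2 (chrM:3914-4951, plus strand), of the membrane arm, was at 331, 337, 417, 308 and 247 CPM with saline and at 405, 374, 459, 475 and 153 CPM with EGF (log2 fold change 0.17, SE 0.24).

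mt-Nd6 (chrM:13552-14070, minus strand) is read from the strand opposite to the other mRNAs. Its levels were 119, 105, 133, 108 and 92.0 CPM with saline and 129, 118, 166, 201 and 314 CPM with EGF. EGF replicates 3, 4 and 5 lay above all Saline libraries, and the highest value was that of EGF replicate 5. Its log2 fold change was 0.76 (SE 0.26, edgeR adjusted p = 0.552) with all libraries and 0.43 (SE 0.13) without EGF replicate 5. The strand setting of the counting is not given in the sources used here, and without it reads of mt-Nd6 and of the opposite strand, where mt-Nd5 overlaps its end, cannot be told apart.

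mt-Nd3 (chrM:9459-9806, plus strand) was the only tested mRNA with lower values with EGF. Its counts were low: 8.15, 8.84, 11.8, 9.09 and 6.56 CPM with saline and 8.68, 6.12, 7.49, 6.04 and 0.129 CPM with EGF. EGF replicates 2, 4 and 5 lay below all Saline libraries. The log2 fold change was -0.67 (SE 0.62) with all libraries and -0.36 (SE 0.20) without EGF replicate 5, with edgeR adjusted p of 0.708 and 0.395. Only 6 of its 299 windows of 50 bases have no exact copy in another annotated transcript, so its level is uncertain.

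Complex III passes electrons to cytochrome c, and mt-Cytb is its only subunit from the mitochondrial genome. mt-Cytb (chrM:14145-15288, plus strand) was at 1007, 965, 1037, 827 and 672 CPM with saline and at 1097, 919, 1320, 1578 and 840 CPM with EGF, so the groups overlapped (log2 fold change 0.35, SE 0.16). Complex IV reduces oxygen, and of its 3 mitochondrial subunits mt-Co1, the catalytic core, was the only one with counts to test. mt-Co1 (chrM:5328-6872, plus strand) was at 1744, 1719, 1741, 1503 and 1324 CPM with saline and at 1938, 1628, 2324, 2743 and 1879 CPM with EGF. Only EGF replicate 2 lay within the Saline range, and the log2 fold change was 0.39 (SE 0.13, edgeR adjusted p = 0.552). For complex V, the ATP synthase, neither mitochondrial subunit could be tested.

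**Figure D3:**
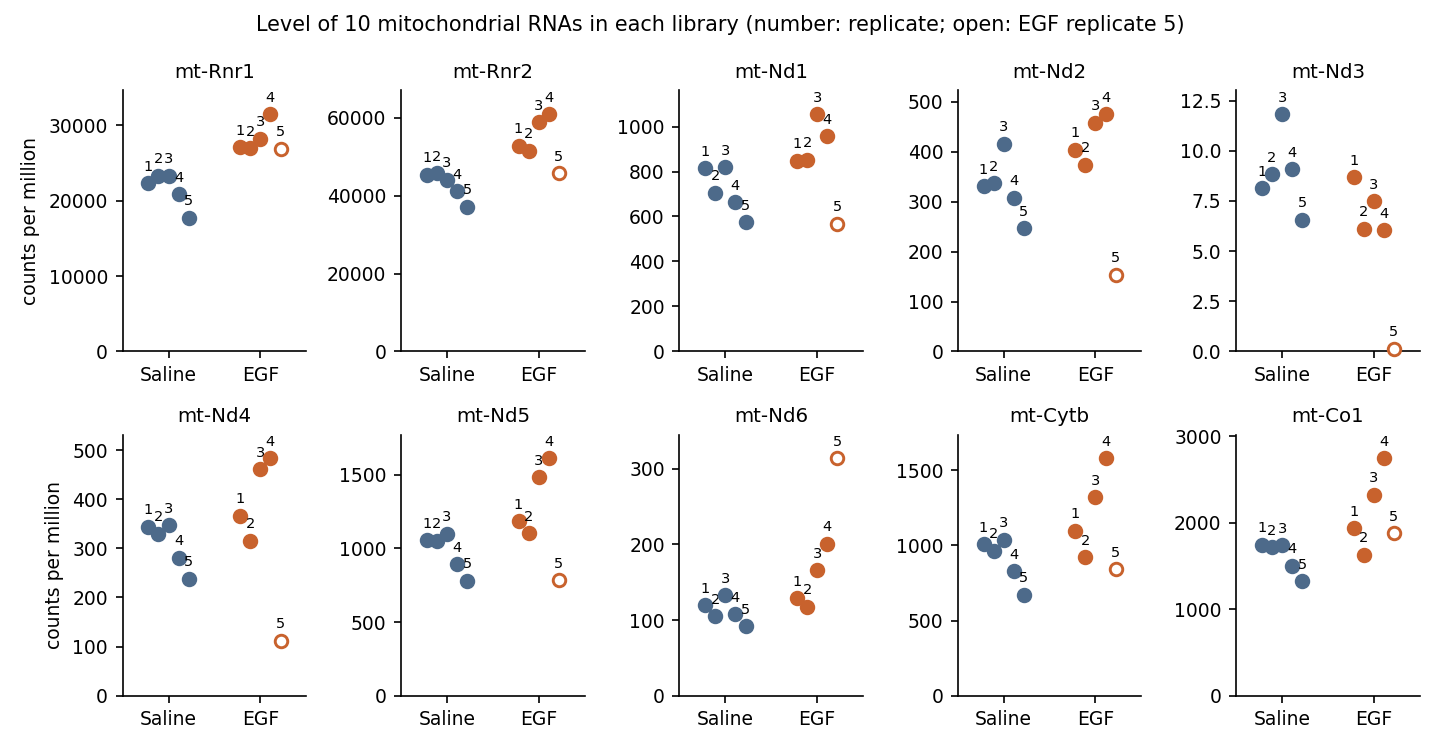
CPM of the 2 rRNAs and the 8 tested mRNAs in each library, each panel with its own axis from 0; numbers are replicates, Saline in blue, EGF in orange and EGF replicate 5 open. EGF replicates 3 and 4 are the highest libraries for the rRNAs and for mt-Nd1, mt-Nd2, mt-Nd4, mt-Nd5, mt-Cytb and mt-Co1, while EGF replicate 5 is the lowest for mt-Nd1 to mt-Nd4 and the highest for mt-Nd6.

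EGF replicate 5 differed from the other 9 libraries in the make-up of its mitochondrial mRNAs more than in their sum. In those 9 libraries mt-Nd4 made up 5.94% to 6.34% of the mitochondrial mRNA counts, mt-Nd6 2.01% to 2.49%, mt-Nd2 5.90% to 7.43% and mt-Co1 30.6% to 34.1%. In EGF replicate 5 the shares were 2.40%, 6.75%, 3.30% and 40.4%. That of mt-Nd5 was 16.9%, against 19.5% to 20.8%. The shares of mt-Nd1 and mt-Cytb lay within the range of the other libraries (12.2% and 18.1%). Against the other 9 libraries its CPM was below all for mt-Nd1, mt-Nd2, mt-Nd3, mt-Nd4 and the 3 tested tRNAs, above all for mt-Nd6, and within their range for mt-Rnr1, mt-Rnr2, mt-Co1, mt-Nd5 and mt-Cytb. It also had the most rRNA counts per mRNA count, 15.6, against 11.5 to 14.8 elsewhere.

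**Figure D4:**
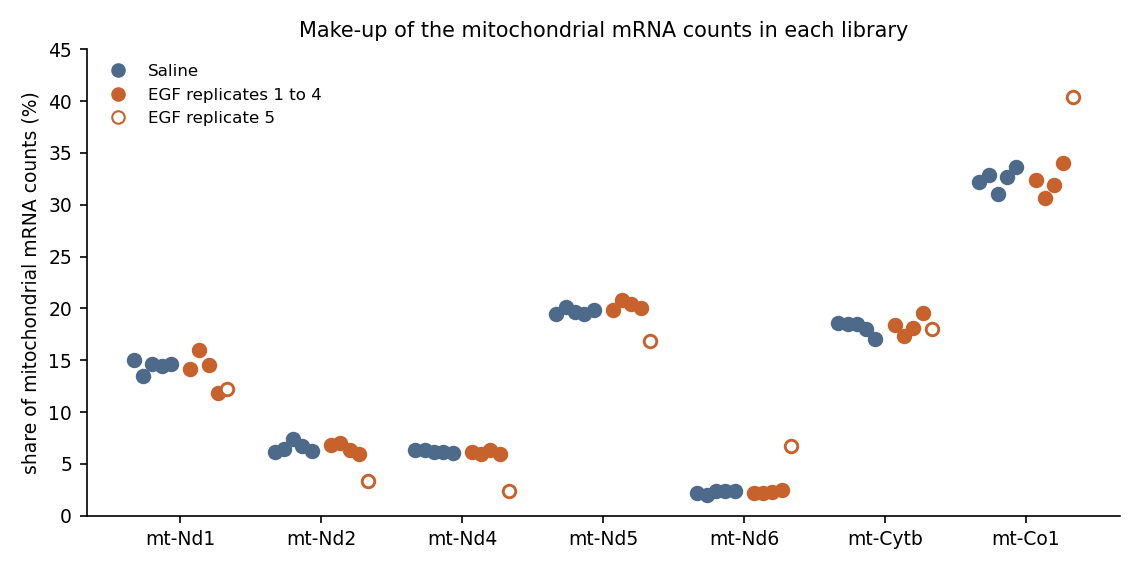
Share of the mitochondrial mRNA counts (%) taken by 7 mRNAs in each library, Saline filled blue, EGF replicates 1 to 4 filled orange and EGF replicate 5 open. For mt-Nd1 the 9 other libraries spread from 11.9% to 16.0%, with EGF replicate 5 inside that range. EGF replicate 5 lies apart from the other 9 for mt-Nd2 (3.30%), mt-Nd4 (2.40%), mt-Nd5 (16.9%), mt-Nd6 (6.75%) and mt-Co1 (40.4%).

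Without EGF replicate 5, 7 of the 8 tested mRNAs lay closer to each other and to the rRNAs. The log2 fold changes were 0.35 for mt-Nd1, 0.36 for mt-Nd2, 0.37 for mt-Nd4, 0.40 for mt-Co1, 0.42 for mt-Cytb, 0.43 for mt-Nd5 and 0.43 for mt-Nd6, beside 0.38 for mt-Rnr1 and 0.37 for mt-Rnr2. mt-Nd3 stayed apart and below 0, at -0.36. The median of the 8 tested mRNAs was 0.39, and that of all 13104 genes tested was 0. At an unadjusted p under 0.05 there were 9 of 13 members higher, and 8.38% of all genes tested. After adjustment 0 members passed edgeR (lowest adjusted p 0.153, for mt-Nd5), where 0.0611% of all genes did. The 4 EGF libraries lay above all Saline libraries for mt-Rnr1, mt-Rnr2, mt-Nd1 and mt-Nd5, 4 of 13 members, and 2.37% of all genes tested did so. Because members share precursors, neither of these counts of members is a count of independent genes. The choice to look without this library was made with its deviation known.

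**Figure D5:**
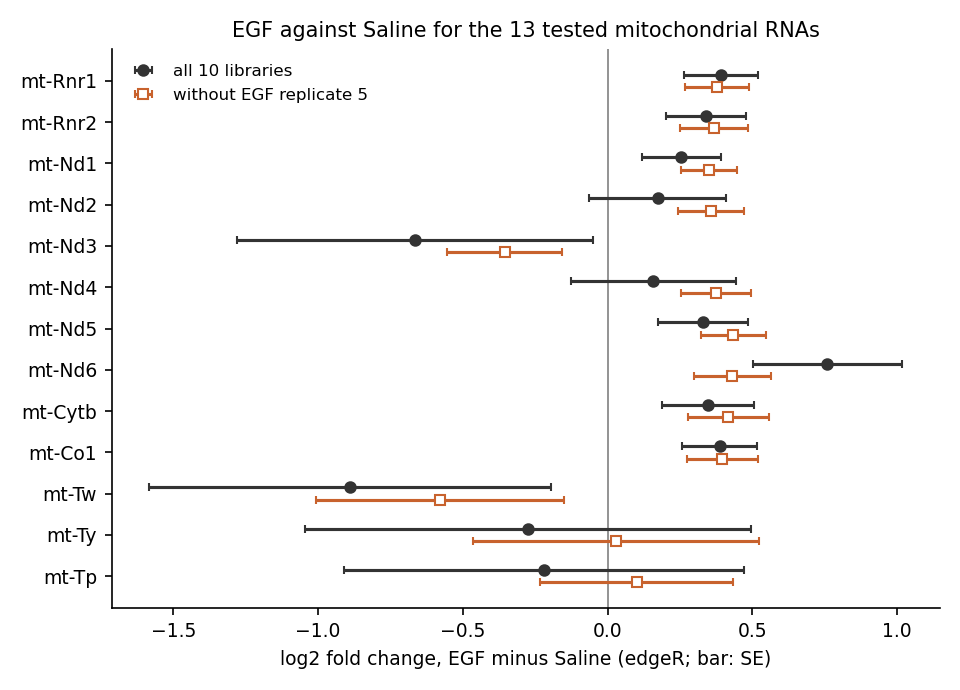
The log2 fold change of EGF against Saline (edgeR; bars are the SE) for the 13 tested members, with all 10 libraries (filled) and without EGF replicate 5 (open). The rRNAs stay at 0.34 to 0.39 either way, and mt-Nd2 and mt-Nd4 move from 0.17 and 0.16 to 0.36 and 0.37.

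The tRNAs carry amino acids to the mitochondrial ribosome, and their counts were too few for most comparisons. All 22 together had 52 to 80 counts in a library with saline, 57 to 79 in EGF replicates 1 to 4, and 1 in EGF replicate 5. Of the 22, 8 had 0 counts in every library (mt-Tn, mt-Tc, mt-Ts1, mt-Tk, mt-Tg, mt-Th, mt-Ts2 and mt-Tl2). A further 11 stayed under the filter with at most 16 counts (mt-Tf, mt-Tv, mt-Tl1, mt-Ti, mt-Tq, mt-Tm, mt-Ta, mt-Td, mt-Tr, mt-Te and mt-Tt). The 3 that were tested, for proline, tyrosine and tryptophan, are shown with their sequences because they held most of the tRNA counts. They lie at chrM:15356-15422 (minus strand), chrM:5260-5326 (minus strand) and chrM:4950-5016 (plus strand), and no window of theirs had an exact copy in another transcript.
mt-Tp: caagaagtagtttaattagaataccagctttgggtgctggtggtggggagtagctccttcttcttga
mt-Ty: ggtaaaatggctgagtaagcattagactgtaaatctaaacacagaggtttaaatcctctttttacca
mt-Tw: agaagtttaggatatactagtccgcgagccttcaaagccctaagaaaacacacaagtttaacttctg
mt-Tp had 22, 11, 20, 17 and 20 counts with saline and 17, 12, 17, 32 and 0 with EGF. mt-Ty had 12, 13, 20, 9 and 23 with saline and 11, 15, 30, 5 and 0 with EGF. mt-Tw had 18, 23, 16, 12 and 8 with saline and 17, 12, 7, 5 and 0 with EGF. The groups overlapped for each of them even without the zeros of EGF replicate 5. The edgeR log2 fold changes were -0.22, -0.28 and -0.89, and without EGF replicate 5 they were 0.10, 0.03 and -0.58, with SE between 0.33 and 0.77. With counts this low, no difference between the groups was detected for the tRNAs, and why the counts were low was not tested.

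The nuclear genes that make and use the mitochondrial genome's RNAs were read off the same fit. Of 72 listed genes for transcription, replication, RNA processing, RNA stability and biogenesis, 70 were tested, 0 passed edgeR in either direction, and 29 were above 0 and 41 below. The medians were -0.25 for the 9 tested transcription genes, -0.03 for 13 replication genes, 0.16 for 22 processing genes, -0.10 for 18 stability genes and 0.08 for 8 biogenesis regulators. That of the processing genes changed sign without EGF replicate 5 (-0.09), as did that of the replication genes (0.03). At an unadjusted p under 0.05, 1 gene was higher and 3 were lower, where 6.14% and 2.73% of all genes tested were, and DESeq2 called 0. The higher one was Primpol, a primase-polymerase that restarts stalled replication, at 24.3 ± 5.56 CPM with EGF against 17.9 ± 1.90 CPM with saline (SD, n = 5 each, as for the genes that follow). The lower ones were Pus1, a pseudouridine synthase of tRNAs (34.7 ± 6.44 with EGF against 43.4 ± 4.15), Fastkd3, an RNA-binding protein of mitochondria (5.92 ± 1.80 against 9.08 ± 1.56), and the transcription factor Myc (249 ± 40.5 against 293 ± 12.4). The other leading genes of these lists did not pass at an unadjusted p under 0.05. Nsun2, an RNA methyltransferase, was at 210 ± 28.7 with EGF against 238 ± 15.7, and Ptcd3, a mitochondrial ribosomal protein, at 54.1 ± 5.96 against 48.3 ± 5.06. The transcription factor Yy1 was at 156 ± 48.1 against 191 ± 8.36, and the nuclease Exog at 18.7 ± 5.01 against 15.3 ± 1.47. Of the transcription genes, the elongation factor Tefm was at 5.22 ± 0.470 against 6.20 ± 1.44 and Mterf4 at 7.57 ± 4.20 against 10.7 ± 1.34. The edgeR adjusted p of these ranged from 0.552 to 0.771. Several of these differences were smaller without EGF replicate 5, in which Mterf4 was at 0.129 CPM. For Mterf4 the log2 fold change went from -0.53 to -0.21, that of Yy1 from -0.305 to -0.14, that of Exog from 0.303 to 0.105, that of Primpol from 0.45 to 0.29 and that of Nsun2 from -0.185 to -0.123.

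The nuclear-encoded subunits of the same complexes had mostly lower values with EGF, the opposite sign of 7 of the 8 tested mitochondrial mRNAs. Of 74 tested, 0 passed edgeR in either direction, 63 were below 0 and 11 above, where 48.5% of all genes tested were above 0. All 9 genes listed for complex III and all 12 listed for complex IV were below 0, with medians of -0.31 and -0.31. The medians were -0.15 for 36 genes of complex I and -0.23 for 17 of complex V. Without EGF replicate 5 the medians were -0.14, -0.32, -0.19 and -0.21 for complexes I, III, IV and V. At an unadjusted p under 0.05, 11 were lower and 0 higher, where 2.73% and 6.14% of all genes tested were, and DESeq2 called 0. Of complex I the leading genes were Ndufb5 (log2 fold change -0.45, SE 0.21) and Ndufb10, at 61.3 ± 12.5 CPM with EGF against 73.6 ± 7.53 CPM with saline (SD, n = 5 each). Without EGF replicate 5 the log2 fold change of Ndufb5 was -0.28, and that of Ndufb10 went from -0.27 to -0.17. Of the genes listed for complex IV, Cox7b was at 71.3 ± 9.62 CPM with EGF against 86.7 ± 8.18, and Cox7a2l at 65.1 ± 15.8 against 82.1 ± 7.39. In the ATP synthase, Atp5f1 was at 91.4 ± 10.4 with EGF against 110 ± 7.36, and Atp5c1 at 135 ± 25.6 against 167 ± 10.6. In complex III, Uqcrh was at 60.0 ± 7.75 with EGF against 74.5 ± 8.14. For Uqcrq, a small subunit of complex III, all EGF libraries (39.8 to 52.1 CPM) lay below all Saline libraries (56.6 to 70.7 CPM), as did those of 1.79% of all genes tested. Its log2 fold change was -0.43 (SE 0.12, edgeR adjusted p = 0.552). The difference between the mitochondrial and the nuclear subunits was not tested.

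Malat1, a long noncoding RNA kept in the nucleus, was highest in EGF replicate 5 and in the EGF libraries with the highest mitochondrial sums. It was at 3360 to 4440 CPM with saline, and at 5209, 3869, 9080, 9053 and 16175 CPM in EGF replicates 1 to 5. EGF replicates 1, 3, 4 and 5 thus had more than any Saline library. EGF replicate 5, with the lowest mRNA sum of the EGF libraries, had the most. The 5 nuclear-retained RNAs summed to 3700 to 4922 CPM with saline and 4242 to 17574 CPM with EGF. Without EGF replicates 3, 4 and 5 the log2 ratio of the means was 0.30 for the rRNAs and 0.19 for the mRNAs. The part of RNA quality or of the mix of cells in these differences was not tested.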

How the data were processed

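Whole-number counts of reads per gene, without normalization, were deposited for 10 libraries of bone marrow HSPCs (2 groups of 5). The submitters' processing notes name STAR, bcl2fastq 2.17 and build GRCm38 (mm10). The counting tool, its strand setting and its annotation are not given in the sources. Every file lists the same 55573 genes, and 0 lacked a gene. The files' symbols differed for 27 genes, none of them mitochondrial.

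Levels are CPM over all counts of a library. In R 4.3.3, edgeR 4.0.16 was run with TMM scaling and filterByExpr (minimum count 10), and EGF was tested against Saline by its quasi-likelihood test in all 10 libraries, with Benjamini-Hochberg adjustment over all genes tested and a threshold of 0.05. Standard errors were taken from the F statistic. The scripts were tested on simulated data. Alternatives were RLE, upper-quartile, library-size and non-mitochondrial scaling, DESeq2 1.42.0, limma-voom (limma 3.58.1) with and without quality weights, a robust fit, the replicate number as a block, a minimum of 1 CPM in 5 libraries, no filter, and libraries left out. The totals without the ribosomal DNA genes were added after seeing the data. Sequence copies were found with blastn 2.17.0 at 90% identity or more and by exact windows among GENCODE M21 transcripts; no genome sequence was searched.

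The members and gene lists were chosen with earlier results of these data known. Every mitochondrial gene that passed the filter was described, the others by name and range, and from each nuclear list the members that passed or else the 2 with the smallest p. Each library was counted as 1 replicate. Depth was similar in all libraries, and pairs of libraries differed by more than sampling noise, which does not show that they come from different mice. Reads copied by PCR are counted as reads, so limits on counts of 0 cover counting error only.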

Additional observations from a re-analysis of the deposited data

Results flagged for a closer look

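Within groups of 5 libraries, 2 values stood apart by Dixon's ratio at its 95% critical value of 0.710, among 38 pairs of group and measure examined, and chance gives about 1 in 20 groups. EGF replicate 4 had mt-Rnr1 at 31469 CPM, above the other EGF libraries at 26900 to 28216 CPM (ratio 0.712). In EGF replicate 5, mt-Nd6 had 7.24% of the counts of the mRNAs on the opposite strand, against 2.21% to 2.56% in the other EGF libraries (ratio 0.931).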

How the results depend on the processing

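The number of genes called by edgeR over all genes, 1 with all libraries, was 0 with library-size scaling, 0 with the replicate block, 0 without EGF replicates 3 and 4, and 0 to 8 with 1 library left out in turn (8 without EGF replicate 5). DESeq2 called 56 genes and limma-voom with quality weights 12. Of the members, edgeR under every setting run and limma-voom without weights called 0, DESeq2 called 2 and limma-voom with quality weights called 1. The replicate numbers did not pair the libraries: correlations of same-numbered libraries ranged from -0.08 to 0.02, and with the replicate block mt-Rnr1 had a log2 fold change of 0.40 (edgeR adjusted p = 0.780), where leaving the block out gave 0.39. With 1 library left out in turn, mt-Ty ranged from -1.0 to 0.028 and mt-Tp from -0.59 to 0.10, and their sign turned without EGF replicate 5 (0.028 and 0.10). Without EGF replicates 3 and 4 the sign turned for mt-Nd2 (-0.059) and mt-Nd4 (-0.20). That setting keeps EGF replicate 5, and with this library left out as well mt-Nd2 was at 0.252 and mt-Nd4 at 0.153. The cause of these changes was not tested. Over all 23 alternatives the log2 fold change was 0.33 to 0.42 for mt-Rnr1 and 0.27 to 0.37 for mt-Rnr2, with adjusted p from 0.0016 to 0.833 for each. The sum of the tRNAs had a log2 ratio of -0.28, and of 0.04 without EGF replicate 5. Counts of at most 16 per library limit what can be said of 19 tRNAs.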
